A study of Homo sapiens with 8 samples.

Results

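The m6A peaks on chromosomes 10, 13 and 18 of HCT116 cells were taken from a single list of 22626 peaks, and they numbered 1578 on 844 genes. A peak was included when the list placed it on chromosome 10 (879 peaks), 13 (390 peaks) or 18 (309 peaks) and its gene name was not a numbered zinc finger name, a filter that left out 60 peaks. The peaks were set against 19532 peaks on 10426 genes of the 19 other autosomes, with the same kind of name left out. The chromosomes were chosen with results of this list in view, in which chromosomes 10 and 18 had the highest shares of positive folds among called peaks and chromosome 13 the highest median enrichment. The sign balance and enrichment below are therefore a description and carry no test.

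HCT116 is a human colorectal cancer line. The series holds 2 IP and 2 input libraries of cells with a stable hairpin knockdown of ALKBH5 (shALKBH5), and 2 IP and 2 input libraries of cells with a control hairpin (shNC), whose genotype is labelled WT. Both arms carry a hairpin. Poly(A) RNA was fragmented, an anti-m6A antibody pulled down the marked fragments (the IP), and fragments set aside before that step formed the input. Nothing in the labels says that the 2 libraries of a group came from separate cultures, and they do not state the hairpin sequence or the number of clones. No value of a single library was used, which leaves replicate error, library depth and the level of ALKBH5 in each library unknown. Of the markers of the labelled tissue, 6 of 10 colorectal epithelial genes had a peak (EPCAM, CDH1, KRT8, KRT18, KRT19 and CDX2). VIL1, CDX1, LGR5 and CEACAM5 had none. A peak was found in 0 of 5 leukocyte genes and 1 of 5 fibroblast genes (COL1A1). Of all annotated coding genes, 49.5% on chromosomes 10, 13 and 18 and 47.7% on the other autosomes had a peak. Peaks of numbered zinc finger genes are not counted there. The 6 of 10 is near these shares and does not by itself identify the tissue.

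N6-methyladenosine (m6A) is the most common internal modification of messenger RNA. A nuclear methyltransferase complex writes it, mostly at adenosines within short motifs built around GGAC, and ALKBH5 is an enzyme that removes it. The mark lies mainly in long internal exons and around stop codons, and reader proteins that bind it act on splicing, export, translation and decay. Each peak here is a stretch of transcript where the IP held more fragments than the input, and a peak can span several exon blocks joined across introns.

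For each peak, the authors' deposited table gives a fold enrichment, read as IP over input, and a log2 fold between the arms with a false discovery rate (FDR). Which arm is the numerator of that fold is not stated, so a positive or negative fold says nothing here about gain or loss in shALKBH5 cells. It is likewise not stated whether transcript level was taken out of the fold. A peak is called when its deposited FDR is 0.05 or lower. Over all 22626 peaks, 8.23% were called, 5.74% with a positive and 2.49% with a negative fold.

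Short stretches at or near transcript starts that lie inside peaks show sequence that some peaks hold. They come from RefSeq start windows (GRCh38.p14), read 5′ to 3′ on the peak's strand, with the searched motif GGAC in capitals. Of 51 peaks on these chromosomes that covered at least 10 of the first 50 bases of their own gene, 8 (15.7%) held GGAC there. In the first 50 bases of all 33558 autosomal start windows, 18.9% held it, and 17.6% held it on the opposite strand. The peaks were searched only over the bases they covered (2232 in all), and the start windows over all 50 bases. With 8 of 51 peaks, the share is not set apart from that of any transcript start. Only stretches that hold GGAC are printed, so they do not show how often peaks hold it. The called peaks are shown first, since they carry the folds described below. The others are start peaks with a log10 p of -20 or lower and no call. The SEC24C peak is shown where it runs over the start window of POFUT4, and the MYL12B peak where it runs over that of the antisense gene MYL12-AS1. Start windows reach 250 bases ahead of the gene start, so these stretches need not be transcribed from POFUT4 or MYL12-AS1.
POLR1D, called, chr13:27621912-27621941, plus strand: ccgcgcctcgcgctatgGGACagagccccc
SEC24C, called, chr10:73772070-73772099, plus strand: atgcccctgctctGGACctctcatttctct
MYL12B, called, chr18:3262438-3262467, plus strand: gaggccctggcccGGACgtccaggggccgg
CHMP1B, not called, chr18:11851427-11851456, plus strand: ggcggccgggagcGGACttaccttaccttc
SEC23IP, not called, chr10:119892760-119892779, plus strand: gtatcGGACggtgggccgca
SNHG22, not called, chr18:49814031-49814060, plus strand: gggccgccgagctGGACccGGACcggtttt
BAG3, not called, chr10:119651399-119651428, plus strand: ggccaacttctctGGACtGGACcagaagtt
Of the 108 called peaks, 6 had at least 10 bases in any annotated start window, and 3 of these held the motif. This count has no matching share above, where only the first 50 bases were searched. POLR1D, a subunit shared by RNA polymerases I and III, had a log2 fold of 0.39 in the authors' deposited table (FDR 4.8e-05). SEC24C, a cargo-binding subunit of the COPII coat, had 0.93 (FDR 0.025), and MYL12B, a myosin regulatory light chain, had 1.23 (FDR 0.00013) in the authors' deposited table. CHMP1B, a subunit of the ESCRT-III membrane-scission machinery, had a fold near 0 (-0.01, FDR 0.67) at an enrichment of 18.4 in the authors' deposited table.

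On chromosomes 10, 13 and 18, 108 peaks (6.84%) were called, against 1658 (8.49%) on the other autosomes. Positive calls made up 5.83% of the peaks on these chromosomes (92 peaks, exact binomial 95% interval 4.73 to 7.10%) and 5.79% on the other autosomes (1131 peaks, 5.47 to 6.13%). Negative calls made up 1.01% on these chromosomes (16 peaks, 0.58 to 1.64%) and 2.70% on the other autosomes (527 peaks, 2.48 to 2.94%). The 2 sets therefore had a like rate of positive calls, and the gap between them lay in the negative calls. Among called peaks, 85.2% were positive on these chromosomes (interval 77.1 to 91.3%) and 68.2% on the other autosomes (65.9 to 70.5%). These intervals cover counting error only, and peaks of 1 gene or locus are not independent.

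Both sets had folds centred above 0, with a median of 0.15 on these chromosomes and 0.14 on the other autosomes. All folds were then shifted by the median of all 22626 peaks (0.14 on the log2 scale) and calls were made again. On chromosomes 10, 13 and 18, 91 peaks were then called, of which 63 were positive and 28 negative (69.2% positive). The same shift gave 815 positive and 770 negative calls on the other autosomes (51.4% positive), and over all 22626 peaks 7.78% calls, 4.13% positive and 3.66% negative. Both shares fell by over 10 percentage points, and the distance between the sets was 17.8 points after the shift and 17.0 points before it.

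The difference was not seen when every peak was counted. Of all 1578 peaks on chromosomes 10, 13 and 18, 872 had a positive fold (55.3%, interval 52.8 to 57.7%). On the other autosomes 10834 of 19532 did (55.5%, 54.8 to 56.2%). The middle 50% of folds ran over -0.50 to 0.84 on these chromosomes and over -0.51 to 0.78 on the other autosomes.

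Chromosome 10 had the highest share of positive folds among called peaks of all 22 autosomes (56 of 64, 87.5%) and chromosome 18 the next (19 of 22, 86.4%). Chromosome 13 ranked 7 (17 of 22, 77.3%), with an interval of 54.6 to 92.2%. The other autosomes ran over 50.9% (chromosome 19) to 82.7% (chromosome 4), with a median of 70.4%. Negative calls were 0.91% of peaks on chromosome 10, 1.28% on chromosome 13 and 0.97% on chromosome 18, which are the ranks 2, 5 and 3 from the lowest. Chromosome 21 was lowest with 0.89%, from 2 negative calls, and chromosome 19 highest with 4.69%. Chromosome 4 lay between chromosomes 18 and 13 with 1.09%, from 9 negative calls. By the share of all peaks with a positive fold, chromosomes 10, 13 and 18 ranked 12, 14 and 7 of 22, at 55.1%, 54.4% and 57.0%.

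**Figure D1:**
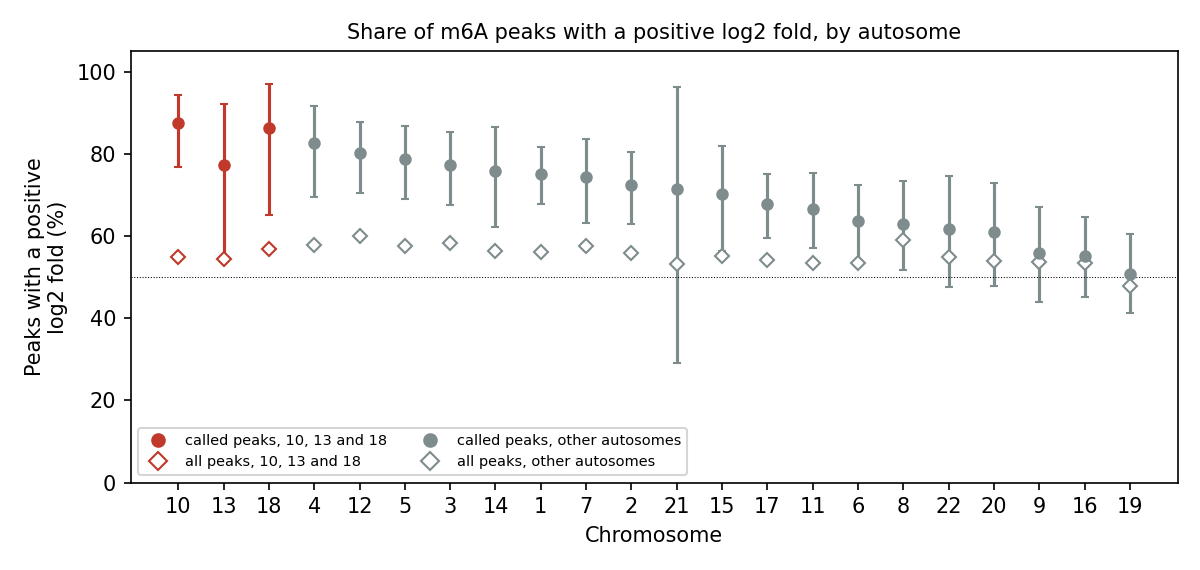
Share of m6A peaks with a positive deposited log2 fold (y, percent) on each autosome (x). Filled points are called peaks with exact binomial 95% intervals, open diamonds are all peaks, and red marks chromosomes 10, 13 and 18. Among called peaks chromosomes 10 and 18 stand highest at 87.5% and 86.4%, while their open diamonds, at 55.1% and 57.0%, lie among those of the other autosomes.

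**Figure D2:**
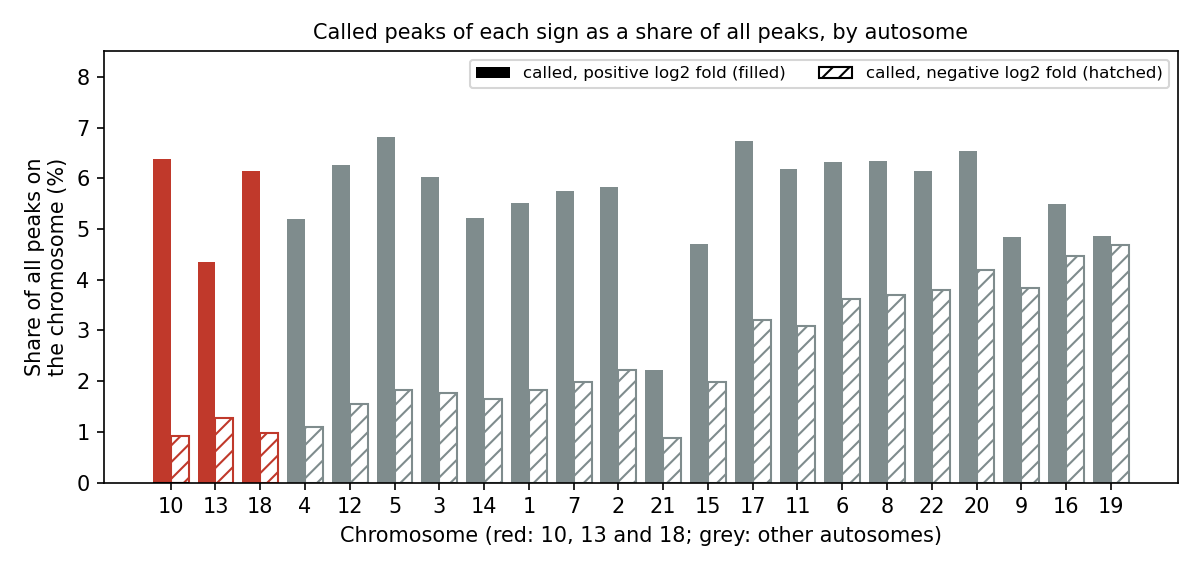
Called peaks with a positive (filled bars) and a negative fold (hatched bars) as a percentage of all peaks on each autosome. The red hatched bars of chromosomes 10, 13 and 18 (0.91, 1.28 and 0.97%) are short beside those of most other autosomes, which reach 4.69% on chromosome 19, while the red filled bars of chromosomes 10 and 18 (6.37 and 6.15%) are not. The filled bar of chromosome 13 (4.36%) is higher than that of chromosome 21 (2.22%) alone.

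Peaks on chromosomes 10, 13 and 18 had a slightly higher enrichment than those elsewhere. The median was 11.0 (middle 50% of peaks 5.54 to 17.4) on these chromosomes and 9.85 (4.82 to 16.3) on the other autosomes. An enrichment of 20 or more was reached by 324 peaks (20.5%) on these chromosomes and by 3289 (16.8%) on the other autosomes. Chromosome 13 had the highest median of the 22 autosomes, 12.3, and chromosomes 10 and 18 both had 10.7. The other autosomes ran over 6.94 (chromosome 19) to 11.3 (chromosome 4). The highest enrichments among peaks with a log10 p of -5 or lower were in TASOR2, a homologue of a subunit of the HUSH silencing complex (203), the long non-coding RNA ENTPD1-AS1 (190) and SAMD8, a sphingomyelin synthase-related protein (134). None of these was called, and the authors' deposited table gave them log2 folds of 0.33, 0.65 and 0.22. In the same set of peaks, with 1 peak per gene and unnamed and pseudogene peaks passed over, the lowest enrichments were 1.26 for PABPC3, a poly(A)-binding protein, 1.29 for TPT1 and 1.76 for HK1, a hexokinase.

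Among called peaks the order differed by sign. Positive called peaks had a median enrichment of 5.53 on chromosomes 10, 13 and 18 and 5.61 on the other autosomes. Negative called peaks had 9.18 on these chromosomes and 6.58 on the other autosomes. An enrichment of 20 or more was found in 17 of the 92 positive called peaks on these chromosomes (18.5%) and in 0 of the 16 negative ones. A count of 0 among 16 allows a share of up to 18.75%, taken as 3 counts of the total and covering counting error only. On the other autosomes 119 positive (10.5%) and 56 negative (10.6%) called peaks reached it.

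Calls and enrichment were also described within 5 classes of peak p. In the class with the smallest p, 6 of 291 peaks on chromosomes 10, 13 and 18 were negative calls (2.06%), against 6.37% on the other autosomes. Positive calls in that class made up 17.9% of peaks on these chromosomes and 15.6% on the other autosomes. In the next class negative calls were 1.72% on these chromosomes and 4.27% on the other autosomes, and positive calls 7.22% and 6.83% in the same order of sets. The remaining classes held 3, 2 and 0 negative calls on these chromosomes (0.885, 0.625 and 0% of peaks), against 1.68, 0.889 and 0.208% on the other autosomes. The chromosomes were chosen with these calls in view, so the split is a description, and the part of peak p in the sign balance was not tested. Median enrichment was higher on these chromosomes in 4 of the 5 classes, with 16.7 against 14.1 in the class with the smallest p, and lower in the class with the largest p, with 7.31 against 7.88.

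**Figure D3:**
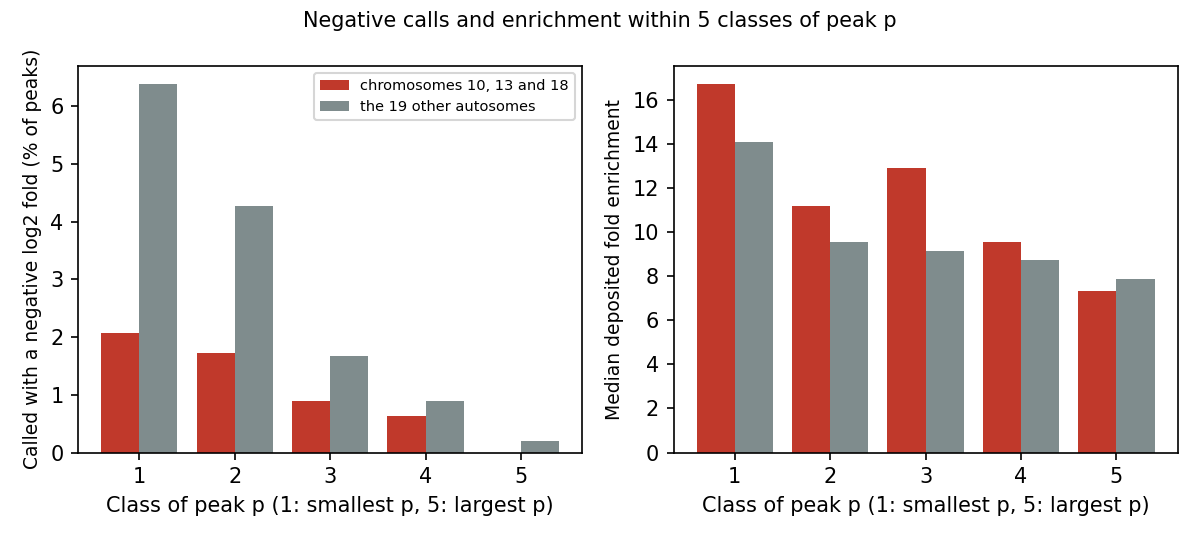
Negative calls (left, percent of peaks) and median deposited fold enrichment (right) within 5 classes of peak p, from the smallest p (class 1) to the largest (class 5). Red bars are chromosomes 10, 13 and 18 and grey bars the 19 other autosomes. In class 1 negative calls were 2.06% for the red bar and 6.37% for the grey one, and the median enrichments were 16.7 and 14.1 for the red and the grey bar.

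Chromosomes 13 and 18 are the poorest in genes of the autosomes, with 2.96 and 3.36 annotated protein-coding genes per Mb, and chromosome 10 had 5.49. The other autosomes ran over 4.05 (chromosome 4) to 24.8 (chromosome 19). Across the 22 autosomes the density of coding genes went with a lower median enrichment (Pearson r = -0.86, Spearman rho = -0.76). It also went with a lower share of positive folds among called peaks (r = -0.60, rho = -0.61) and a higher share of negative calls (r = 0.60, rho = 0.64). With the share of positive calls it hardly went (r = 0.04, rho = 0.16). The share of all peaks with a positive fold was also lower where coding genes were denser (r = -0.68, rho = -0.49). That share went with the share of positive folds among called peaks (r = 0.65, rho = 0.65). The points share the same libraries and are given as a description. They include chromosomes 10, 13 and 18, chosen with sign balance and enrichment in view, which may in part set these coefficients. No coefficient without these chromosomes was computed. Of the annotated coding genes, 664 of 1342 (49.5%) carried a counted peak on chromosomes 10, 13 and 18. On the other autosomes 8491 of 17784 (47.7%) did. The totals include numbered zinc finger genes, whose peaks were left out (60 on these chromosomes and 784 on the other autosomes). Both shares are therefore too low, and their difference is not read. The genes under the peaks were longer on these chromosomes, with a median span of 45079 bases against 28938.5 bases on the other autosomes. Of 1444 peaks inside an annotated gene, 258 (17.9%) lay within 1000 bases of its 3′ end, against 22.2% on the other autosomes. Near the 5′ end lay 119 peaks (8.24%), against 8.41% on the other autosomes. The part of gene density and gene length in the sign balance was not tested.

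Along the chromosomes, positive calls were spread widely. On chromosome 10 they lay in 13 of 14 windows of 10 Mb, and negative calls in 4. The window from 100 to 110 Mb held 127 peaks on 62 genes and 17 of the calls, 13 positive and 4 negative, and its median enrichment was 7.59. On chromosome 13 positive calls lay in 8 of 11 windows and negative calls in 4. There the window from 30 to 40 Mb had 25% positive folds among 24 peaks, with a median of -0.41, and the window from 90 to 100 Mb had 78.6% among 28 peaks, with a median of 0.82. On chromosome 18 positive calls lay in 8 of 9 windows and negative calls in 3.

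The called peaks lay on 93 genes, 81 with a positive call and 16 with a negative call, of which 4 had both. Large positive folds were on genes of several roles. The peak of COMTD1, a protein with a methyltransferase domain, had a log2 fold of 4.07 (FDR 0.028, chr10:75233939-75234148, enrichment 10.7) in the authors' deposited table. ITPRIP, a protein that interacts with the inositol trisphosphate receptor, had 3.06 (FDR 0.00054, chr10:104313704-104314661, enrichment 32.1) in the authors' deposited table. This peak shares its bases with an unnamed gene model on the opposite strand, whose fold was 2.34 without a call, so the gene is uncertain. Further large folds were in HSPA12A of the Hsp70 family with 2.84, TMEM241 with 2.83, TRAPPC8, a subunit of a vesicle tethering complex, with 2.81, and the antisense RNA SVIL-AS1 with 2.57 in the authors' deposited table. FAM210A, a mitochondrial protein, had 2.52, the paraspeckle protein PSPC1 2.49 and SUV39H2, which methylates histone H3 at lysine 9, also 2.49 in the authors' deposited table. SUV39H2 shares bases with a peak of DCLRE1C, a nuclease of DNA end joining, that had 1.10 and no call. The calls of COMTD1, HSPA12A and TRAPPC8 were lost when p was doubled, and that of TRAPPC8 also when the folds were shifted.

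The largest negative folds came from 10 genes. SNHG22, a small nucleolar RNA host gene, had -2.81 (FDR 0.025, chr18:49849659-49849897) in the authors' deposited table, and DSC2, a cadherin of desmosomes, had -2.67 (FDR 0.030, chr18:31067713-31068308). LZTS2, a leucine zipper protein, had -2.48, ABI1, a subunit of the WAVE complex that drives actin branching, -2.31, and JCAD, a protein of endothelial junctions, -1.97 in the authors' deposited table. OGA, the enzyme that removes O-GlcNAc from proteins, had -1.85, ZC3H13 -1.72 and the ribosomal protein gene RPS24 -1.52 (FDR 7.8e-10) in the authors' deposited table. ACTR1A, a subunit of dynactin, had -1.5 and VAPA, a tether of the endoplasmic reticulum, -1.11 in the authors' deposited table. The calls of DSC2, LZTS2, ABI1 and OGA were lost when p was doubled. The shift makes every negative fold larger in size, which favours the negative calls, and none of them was lost. The median fold of called peaks was 1.15 for positive and -1.52 for negative ones on these chromosomes, and 1.10 and -1.15 on the other autosomes. Past a log2 fold of 1 in size lay 54 of the 92 positive and 12 of the 16 negative called peaks. On the other autosomes 622 of 1131 positive and 320 of 527 negative called peaks did.

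**Figure D4:**
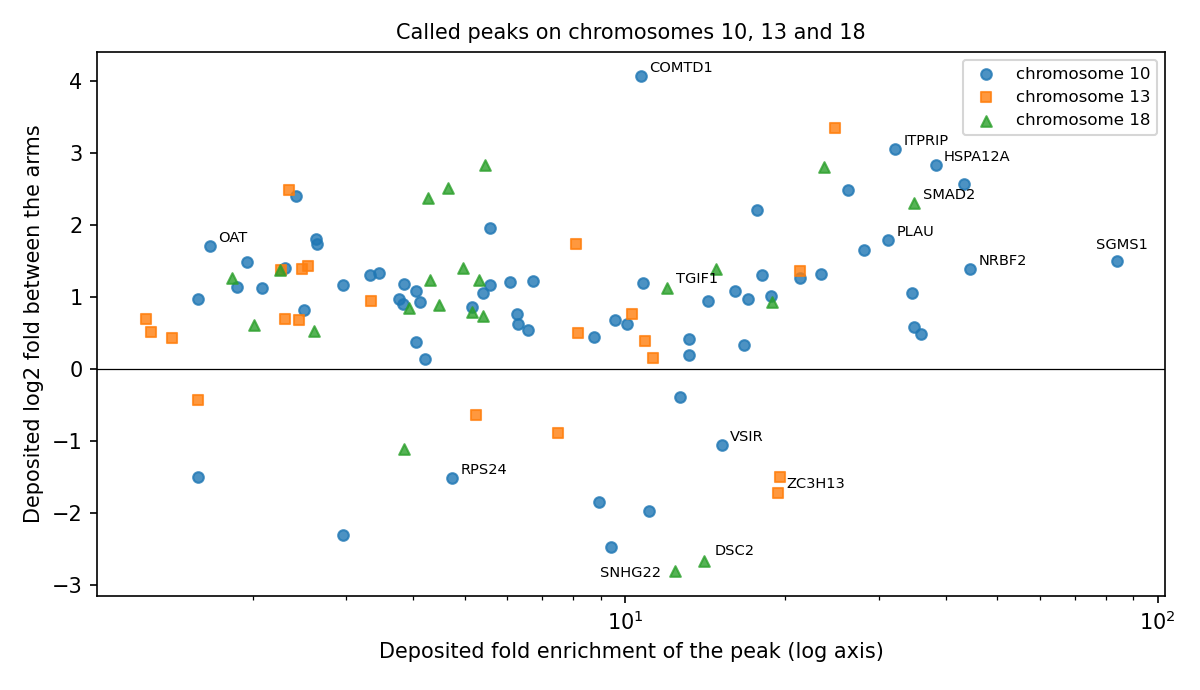
Deposited log2 fold between the arms (y) against deposited fold enrichment (x, log axis) for the 108 called peaks on chromosomes 10, 13 and 18, with some genes named and each chromosome with its own marker. Peaks with an enrichment of 20 or more (17) all lie above 0, and the 16 peaks below 0 stay under an enrichment of 20.

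Just inside the threshold lay TIMM23 (FDR 0.048, log2 fold 0.48), USPL1 (FDR 0.049, 1.36) and a JMJD1C peak (FDR 0.049, 1.65) in the authors' deposited table. Just outside lay TUBGCP2 (FDR 0.051, 2.60) and ZWINT (FDR 0.052, 2.12) in the authors' deposited table. Reading the deposited p as one-sided and doubling it kept 73 of the 92 positive and 12 of the 16 negative calls, where 6.36% of all 22626 peaks were called, 4.57% positive and 1.78% negative. At an FDR of 0.01, 57 positive and 10 negative calls were kept, where 4.99% of all peaks were called, 3.63% positive and 1.36% negative. Among peaks named below, doubling p or shifting the folds, or both, ended the calls of both JMJD1C peaks and those of CKAP2, USPL1, NARS1, BUB3, SEC24C, EIF3A, HNRNPF, ZRANB1, TIMM23 and DUSP5. It also ended 1 of 2 positive calls each in ALDH18A1, NOLC1, SCD and TPT1. In all, 20 called peaks lay at loci shared with another gene, such as STK24, a kinase, and FARP1, a guanine nucleotide exchange factor, on opposite strands of chromosome 13, with 1.39 and 1.43 in the authors' deposited table. Shared loci also hold the calls of SEC24C, GTF3A, RBFA, ZRANB1, MYL12A and SNHG22 and 1 of those of TPT1, so the gene is uncertain there. A further 10 called peaks lay on pseudogenes. Reads of such copies, and of families with near-identical members such as MYL12A and MYL12B, TPT1, RPS24 and PABPC3, can be assigned to more than 1 place, and these peaks are uncertain for that reason.

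Genes with many peaks mostly had folds of both signs. A single peak was found on 436 of the 844 genes (51.7%), and 30 genes carried 5 or more. Of the 408 with more than 1 peak, 154 had all their folds on 1 side of 0. JMJD1C, a protein of the jumonji demethylase family, had 11 peaks, of which 8 were positive and 2 called, with 1.73 and 1.65 in the authors' deposited table. ZC3H13, which holds the m6A methyltransferase complex in the nucleus, had 9 peaks on chromosome 13, of which 3 were positive. Its called peak (chr13:45967604-45968802, enrichment 19.4) had -1.72, and its lowest fold, -2.94, was not called in the authors' deposited table.

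SH3PXD2A, a scaffold of invadopodia, had 8 peaks within -3.05 to 0.35, and LCOR, a corepressor of nuclear receptors, 8 within -1.08 to 3.06 in the authors' deposited table. MYCBP2, a large ubiquitin ligase, had 7 peaks within -3.20 to 2.70, and ANKRD12, an ankyrin repeat protein, 8 within -1.61 to 1.58 in the authors' deposited table. MTCL1, a microtubule crosslinker, had 7 peaks within -1.70 to 1.25, and TSHZ1, a zinc finger factor, 6 within -1.49 to 0.65 in the authors' deposited table. None of the peaks of these 6 genes was called.

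**Figure D5:**
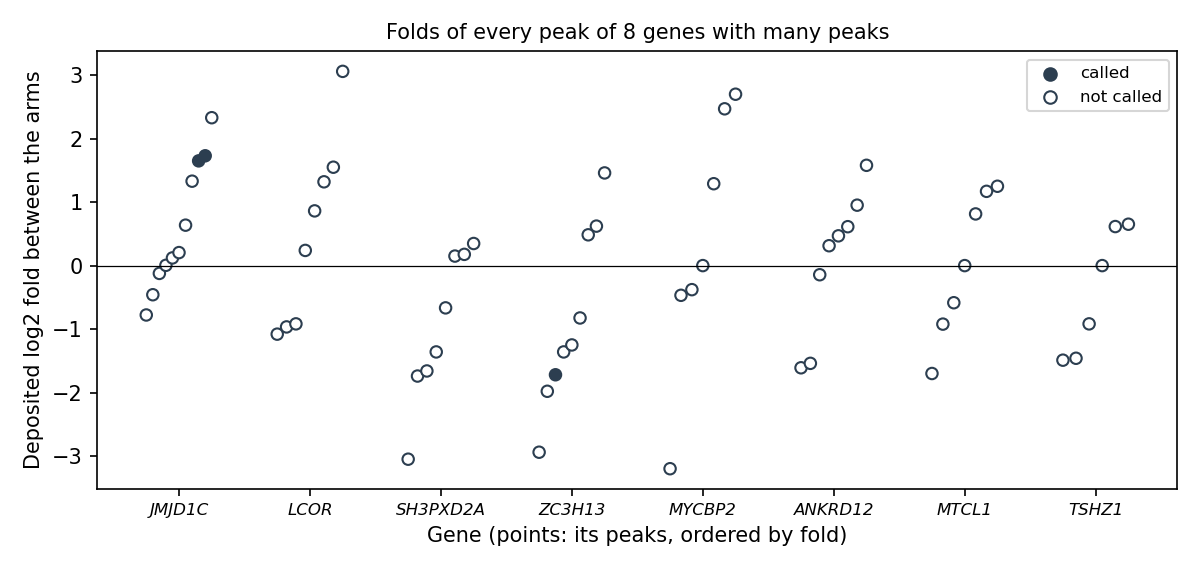
Deposited log2 fold (y) of every peak of 8 genes with many peaks on chromosomes 10, 13 and 18, ordered by fold within a gene (x), with called peaks filled. Folds of each gene lie on both sides of 0. The only called peaks shown are 2 in JMJD1C (1.73 and 1.65) and 1 in ZC3H13 (-1.72).

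Called peaks of opposite sign were found within OGA, ACTR1A, TPT1 and COMMD6. OGA had 2 positive called peaks (0.97, FDR 1.6e-12, and 0.95, FDR 0.0019) and 1 negative (-1.85, FDR 0.030) in the authors' deposited table. TPT1, which encodes a translationally controlled tumour protein, had 0.51 and 0.16 beside -0.44 in the authors' deposited table. ACTR1A had 0.68 at an enrichment of 9.57 and -1.5 at an enrichment of 1.58 in the authors' deposited table. COMMD6, a COMM domain protein, had 0.68 at an enrichment of 2.44 and -0.89 at 7.50 in the authors' deposited table. PDCD11, a ribosome biogenesis factor, had 3 called peaks among its 7, all positive (1.96, 1.30 and 1.26) in the authors' deposited table.

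Genes were also grouped by role in 16 lists, of which 342 of 465 genes on these chromosomes carried a peak. Together they held 719 peaks, 61 called (8.48%), 53 positive and 8 negative. The called share was 6.84% over all 1578 peaks on these chromosomes and 8.23% over all 22626 peaks, the second of which is close to that of the lists. By sign, 5.83% of the 1578 peaks were positive and 1.01% negative calls. At these shares a short list will mostly hold no negative call, and a short list with no call at all is not set apart. The listed peaks had a median log2 fold of 0.18 beside the 0.15 of all 1578 peaks. A gene can be in more than 1 list, and the lists are broad. The RNA processing list holds POLR1D and GTF3A, which serve transcription. The Wnt and Hedgehog list holds WAC, and the translation list holds TPT1. The counts of a list therefore do not stand for its named role alone.

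TGF-beta signalling, in which SMAD2 and SMAD4 carry the signal to the nucleus, had 19 peaks with 3 positive and no negative calls and a median fold of 0.70. TGIF1, a corepressor of SMADs, had 1.13 (FDR 7.9e-19, chr18:3457090-3458330, enrichment 12) in the authors' deposited table. SMAD2 had a called peak with 2.31 (FDR 0.011, chr18:47841545-47844985, enrichment 34.9) and 2 uncalled ones with 0.29 and 0.84 in the authors' deposited table. BAMBI, a decoy receptor of the pathway, had 1.17 (FDR 0.017) in the authors' deposited table. SMAD4 had -0.50 and 1.13, and the inhibitory SMAD7 1.31, all uncalled in the authors' deposited table.

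The Wnt and Hedgehog list had 21 peaks with 3 positive and no negative calls and a median fold of 0.10. The secreted Wnt inhibitor DKK1 had 0.44 (FDR 1.9e-10), and WAC, an adaptor of histone ubiquitination, had 1.01 (FDR 0.013) in the authors' deposited table. TCF7L2, the main DNA-binding partner of beta-catenin in colon, had 6 peaks, 1 of them called with 1.14 (FDR 0.0051, enrichment 1.87) in the authors' deposited table. The insulin, FOXO and PI3K list had 20 peaks and no call of either sign. FOXO1 had -1.36 and 0.18, uncalled in the authors' deposited table.

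Growth factor and kinase genes had 52 peaks with 2 positive calls, in STK24 and in the MAP kinase phosphatase DUSP5 (0.19, FDR 0.00012) in the authors' deposited table. Cell cycle genes had 56 peaks with 3 positive calls. These were TFDP1, the partner of E2F factors (0.77), the checkpoint protein BUB3 (0.97) and CKAP2, a spindle protein (1.74), in the authors' deposited table. RB1, the retinoblastoma protein gene, had 1 peak with a fold of 0 in the authors' deposited table. MKI67, which encodes the Ki-67 antigen, had 7 uncalled peaks within -0.50 to 0.66 in the authors' deposited table. DNA repair genes had 28 peaks and no call, and BRCA2 had -0.81 and -0.42 in the authors' deposited table. Transcription factors had 68 peaks and 1 call, in KLF5, a factor of proliferating intestinal crypt cells (0.50, FDR 5.2e-06, chr13:73060619-73076165), in the authors' deposited table. KLF6 had 3 uncalled peaks within -0.33 to 0.31, the intestinal factor CDX2 -0.83 and -1.33, and the apoptosis inhibitor BCL2 0.61, all uncalled in the authors' deposited table. Chromatin regulators had 46 peaks with 3 positive calls, in SUV39H2 and JMJD1C.

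Adhesion, matrix and cytoskeleton genes had 58 peaks with 7 positive and 2 negative calls and a median fold of 0.52. The myosin light chain genes MYL12A (0.85, FDR 2e-22) and MYL12B (0.61, FDR 5e-17) were called in the authors' deposited table. So were ANXA11, an annexin (1.05, FDR 2e-12), and the integrin beta 1 subunit ITGB1 (0.86, FDR 3.2e-10) in the authors' deposited table. The negative calls of the list were DSC2 and ABI1.

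The RNA processing list had 83 peaks with 5 positive calls and 1 negative call, the last in ZC3H13. Beside POLR1D, the positive calls were in NOLC1, a nucleolar phosphoprotein (1.08 and 0.62), HNRNPF, a splicing factor (0.33), and GTF3A, the transcription factor of 5S RNA genes (0.95), in the authors' deposited table. The translation list had 25 peaks with 5 positive and 3 negative calls. The positive ones were 2 TPT1 peaks, RBFA, a mitochondrial ribosome factor (0.92), EIF3A, an initiation factor subunit (0.76), and NARS1, the asparagine tRNA ligase (1.23), in the authors' deposited table. The negative ones were in RPS24, TPT1 and MRPL43, a mitochondrial ribosomal protein gene (-0.40, FDR 0.018), in the authors' deposited table.

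Metabolic genes had 79 peaks with 13 positive calls and 1 negative call and a median fold of 0.51. PFKP, a phosphofructokinase of glycolysis, had the smallest FDR of the called peaks, with 1.41 (FDR 1.6e-26, chr10:3136460-3136790, enrichment 2.30) in the authors' deposited table. The transaminases GOT1 (0.62, FDR 3.2e-19) and OAT (1.71, FDR 1.2e-06) were called, the OAT peak at an enrichment of 1.66, in the authors' deposited table. Further positive calls were in the desaturase SCD (1.12 and 0.55), adenosine kinase ADK (1.49), GLUD1, a glutamate dehydrogenase (0.81), and ALDH18A1 of proline synthesis (1.30 and 1.22) in the authors' deposited table. Sphingomyelin synthase SGMS1 (1.5, enrichment 83.8) and the cholesterol transporter NPC1 (1.41) also had a positive call in the authors' deposited table. The negative call was the OGA peak at -1.85.

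Mitochondrial genes had 24 peaks and 1 call, in the import channel gene TIMM23. Stress and apoptosis genes had 26 peaks and 2 positive calls, in HSPA12A and in the ferroptosis suppressor AIFM2 (2.21, FDR 0.017) in the authors' deposited table. Ubiquitin genes had 73 peaks and 3 positive calls, in WAC, the deubiquitinase ZRANB1 (0.58) and USPL1 (1.36) in the authors' deposited table. Trafficking genes had 62 peaks with 4 positive calls and 1 negative call. The positive ones were in NPC1, SEC24C, GDI2, a Rab regulator (2.41), and TM9SF3, a Golgi membrane protein (1.80), and the negative one in VAPA, in the authors' deposited table.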

How the data were processed

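Peaks came from 1 table for the whole series, on 8 libraries of HCT116 cells grouped by their titles (2 per group). The authors processed the reads, and BWA 0.7.12, HOMER 4.9.1 and the GRCh38 build appear, without a stated role, per the submitters' processing notes. The caller is not stated. Several anti-m6A antibodies, fragment sizes and platforms appear in the labels. Per the file headers, the table holds a p-value for each peak, both as a score and as its log10, as the authors computed it. The deposited fold enrichment is a linear ratio, and the deposited log2 fold compares the arms. Neither the kind of p nor the use of replicate spread in it is stated.

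From this table, counts, shares, medians and exact binomial 95% intervals (counting error only) were computed with Python 3.11.15, pandas 2.3.3 and scipy 1.17.1. The FDR adjustment and the merging of peaks into loci were tested on simulated data. The other steps, recentring among them, were not. No test was run across libraries or between sets of peaks. Coordinates are 1-based on GRCh38, and 1484 of 1578 peaks matched a symbol of the GRCh38.p14 RefSeq gene table, which gives gene spans and no exons. A locus is called shared where the peaks of 2 genes overlap by 1 base or more. For recentring, standard errors came from fold and p, read as one-sided, where p was under 0.3, and elsewhere were predicted. Alternatives were a stricter FDR, p doubled, recentring, 1 peak per locus or gene, chromosomes left out and limits on peaks.

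The members and gene lists were chosen with earlier results of these data known. Named genes are the 10 largest positive and negative called folds (1 per gene, unnamed and pseudogene peaks passed over), the 3 genes with most peaks per chromosome, the 3 highest and lowest enrichments, up to 4 called peaks per gene list, and 15 fixed genes, of which TYMS had no peak. PDCD11, COMMD6, the genes at shared loci or beside the threshold, those with printed sequences, the further called genes of the lists, and those named in the plot of called peaks were named after their values were seen. Values of a few such genes are not reported here.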

Additional observations from a re-analysis of the deposited data

How the results depend on the processing

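The share of positive folds among called peaks was higher on chromosomes 10, 13 and 18 than on the other autosomes by 17.0 points, and by 13.6 to 19 points under the alternatives run. The share over all peaks differed by -0.21 points, and by -0.85 to 0.81 under the alternatives run, so its sign was not stable. Of 79 values under alternatives, 70 counted as close to the reported one. For a count, close meant within a factor of 1.5. The limits for shares were wide, since every value of the share over all peaks counted as close although its sign changed. Recentring with the calls kept leaves every negative call negative, and its difference in negative calls was the reported -1.68% of peaks. The count of 70 is therefore no measure of stability. The 108 calls became 67 at an FDR of 0.01, 70 with 1 peak per gene and 44 without chromosome 10. The difference in median enrichment (1.15) ran over 0.85 to 2.3 under the alternatives run. It was smallest without chromosome 13 (0.85), 0.885 without shared loci and 0.9 without chromosomes 16 and 19. It was 1.6 with 1 peak per gene and 2.3 for peaks with a log10 p of -5 or lower. The difference in negative calls (-1.68% of peaks) was -0.846% at an FDR of 0.01, -2.26% with 1 peak per gene, -2.46% for peaks with a log10 p of -5 or lower and -2.17% with folds recentred and calls made again. The causes were not tested. Of the 92 positive calls, 29 were lost on recentring and 19 with p doubled, and 52 held under these and an FDR of 0.01. Of the 16 negative calls, 10 held under all of these. Recentring, which favours negative calls, ended none of them. No paired analysis was possible because the table holds no values per library, and leaving out replicates was not run for the same reason. The depth behind a call is unknown.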
